A study of Mus musculus with 12 samples.

Results

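The genes described here are 8 genes of cholesterol synthesis and its control: *Hmgcs1*, *Idi1*, *Fdps*, *Fdft1*, *Sqle* and *Lss*, which encode enzymes, and *Insig1* and *Srebf2*, which encode regulators. They were taken from the table of read counts by their symbols, and each of the 8 was listed once among 55335 genes. Their levels were followed in all 12 libraries, made from bone-marrow-derived macrophages (BMDMs) and from livers of mice with or without *Tshr*, the thyrotropin (TSH) receptor, in myeloid cells.

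Cholesterol is built from acetyl-CoA along the mevalonate pathway, which runs through isoprenoids to squalene and then closes and trims the sterol ring. The liver is a main site of this synthesis, while macrophages also take up cholesterol from lipoproteins and dead cells. SREBP2, the protein made from *Srebf2*, is a membrane-bound transcription factor that is cut free when sterols in the endoplasmic reticulum are scarce, and it then drives the enzymes of the pathway and *Srebf2* itself. INSIG1 holds SREBP2 and its escort SCAP in the endoplasmic reticulum, and *Insig1* is also an SREBP target.

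The control group was *Tshr* f/f (floxed *Tshr* and no Cre), and the *Tshr* MKO group carried the same floxed alleles with Lyz2-Cre, a Cre driven from the lysozyme 2 gene and active in neutrophils as well as in monocytes and macrophages. All mice were male C57BL/6N, and the *Tshr* f/f mice were littermates of the *Tshr* MKO mice. For BMDMs, marrow was grown for 7 days with M-CSF at 10 ng/mL, and both genotypes then received TSH at 1 ng/mL for 24 h, so that no group was without TSH. The labels give 6 weeks as the age of these mice, and the study's methods give a range of ages that starts there. For livers, mice 6 weeks old received high-fat food over 9 weeks and were then fasted for 8 h and killed 5 min after insulin at 1.5 U/kg, in both genotypes. Each of the 4 groups had n = 3 libraries. The study's methods describe RNA from mice in groups of this size, but the labels do not tie a library to an animal or a culture, so the p-values below measure the spread between these libraries. In bulk RNA, fewer cells of a type and less RNA per cell cannot be told apart.

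*Tshr* could not check the genotypes, since it had 0, 0 and 2 counts in the *Tshr* f/f BMDMs, 0, 0 and 5 in the *Tshr* MKO BMDMs and 0 in all 6 livers. The labels of the liver libraries also stood against a table of the study, in which the same libraries appear under the other genotype. The labels were followed here, and under the other assignment every liver difference between genotypes given below would change its sign. The ratio of livers to *Tshr* f/f BMDMs would then be 4.46 instead of 9.63 for *Idi1* and 0.614 instead of 0.927 for *Srebf2*, and the differences between tissues in the genotype change would lie below 0 instead of above it. Total counts were between 33683981 and 40954211 in BMDMs and between 28962878 and 40420513 in livers. The 6 hepatocyte markers summed to 105000–139000 CPM (counts scaled to the size of a library, for marker sums over all 12 libraries) in livers and to at most 0.173 CPM in BMDMs, and the 6 macrophage markers summed to 10600–21900 CPM in BMDMs and to 151–425 CPM in livers. Replicate 3 of the *Tshr* f/f BMDMs stood apart, with 26100 CPM of 6 inflammatory markers against 1820 and 1080 CPM in the other two, and with a scaling factor of 0.738 against 0.993–1.11 in the other BMDM libraries.

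The sequences before the start sites of *Hmgcs1*, *Insig1* and *Srebf2* are shown because these genes stand for an enzyme, a regulator that is also a target, and the factor itself. They come from RefSeq (GRCm38.p6), which gave 300 bases around the start for 5 of the 8 genes, and they end before the first base that RefSeq or GENCODE M21 places in a transcript. Capitals mark the sterol regulatory element TCACNCCAC, the NF-Y box CCAAT and the E-box CACGTG on either strand, so that a CCAAT on the opposite strand reads ATTGG.
Hmgcs1, chr13:119690101-119690350, plus strand: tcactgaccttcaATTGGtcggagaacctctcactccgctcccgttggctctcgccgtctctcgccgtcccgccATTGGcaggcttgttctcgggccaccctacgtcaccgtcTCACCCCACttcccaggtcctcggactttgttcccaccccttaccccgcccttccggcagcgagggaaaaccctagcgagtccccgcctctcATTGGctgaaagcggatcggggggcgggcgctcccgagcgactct
Insig1, chr5:28071162-28071362, plus strand: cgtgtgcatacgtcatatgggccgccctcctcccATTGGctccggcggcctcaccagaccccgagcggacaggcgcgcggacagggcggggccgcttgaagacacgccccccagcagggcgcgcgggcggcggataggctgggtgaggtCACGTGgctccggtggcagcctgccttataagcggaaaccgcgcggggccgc
Srebf2, chr15:82147019-82147180, plus strand: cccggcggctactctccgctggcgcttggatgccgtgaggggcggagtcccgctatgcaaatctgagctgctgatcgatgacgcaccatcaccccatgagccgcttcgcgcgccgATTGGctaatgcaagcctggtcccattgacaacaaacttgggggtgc
The element TCACNCCAC, a form of the site that SREBPs bind, was found, among these 5 promoters, before *Hmgcs1* alone, 137 bases ahead of its RefSeq start, and 1.24% of 32851 promoters of the same length held it. The NF-Y box was found in 5 of 5 promoters (*Insig1*, *Lss*, *Idi1*, *Hmgcs1* and *Srebf2*) and in 37.4% of all, and *Hmgcs1* held several. The E-box, the site of basic helix-loop-helix factors, was found in *Insig1*, 101 bases before the start, and in 7.15% of all promoters. The GC box GGGCGG, a site of Sp1-like factors that is not capitalised, was found in 5 of 5 promoters and in 35.7% of all. Matches were counted over all 300 bases around the RefSeq start, beyond the parts printed. For *Idi1*, the NF-Y boxes (45 and 14 bases before that start) and the GC box (69 bases before) lie after the start that GENCODE gives. The 5 of 5 for these motifs thus depends on the RefSeq start. These are matches of letters and no measurement of binding.

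On GRCm38, *Hmgcs1* (ENSMUSG00000093930) lies on chr13:119690379-119708260, *Idi1* on chr13:8885501-8892451, *Sqle* on chr15:59315077-59331192, *Srebf2* on chr15:82147181-82205379, *Lss* on chr10:76531588-76557138 and *Insig1* on chr5:28071363-28078662, all on the plus strand, while *Fdft1* on chr14:63145150-63179578 and *Fdps* on chr3:89093588-89101959 lie on the minus strand. Most of the genes they overlap had few counts, but 774 exon bases of *Fdft1*, 18.3% of its exons, are shared with *Ctsb* on the opposite strand, which had 11982–474070 counts a library against 631–4066 for *Fdft1*. The libraries kept the strand, but how strand was used in counting is not given in the sources used here, so reads of the pair cannot be told apart with certainty. *Idi1* has a processed pseudogene, *Gm13502*, whose transcript matched it over 684 bases at 100% identity and held up to 22.7% as many counts as *Idi1*. Another copy of *Idi1*, *Gm35570*, held up to 5.04%. *Idi1* values are therefore uncertain, by an amount that these counts do not bound, since the handling of shared reads is not known. Copies of *Fdps* and *Fdft1* held at most 3.21% and 0.963% as many counts.

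The livers held more of the pathway's transcripts than the macrophages. Culture with M-CSF, TSH, high-fat food, fasting and insulin differed with the tissue and cannot be told apart from it. The same holds where genotype changes are compared between tissues. In CPM per kb of exon, which allows genes to be compared, the *Tshr* f/f livers ranked *Insig1* first at 87.1 ± 26.6 (SD, n = 3), then *Hmgcs1* at 72.1 ± 21.9, *Fdps* at 41.5 ± 14.8, *Idi1* at 36.5 ± 13.9, *Fdft1* at 33.0 ± 10.8, *Sqle* at 20.2 ± 9.11, *Srebf2* at 14.3 ± 2.63 and *Lss* at 6.30 ± 2.25. Among neighbours in that order, only *Srebf2* and *Lss* had ranges over the 3 libraries that did not overlap. In the *Tshr* f/f BMDMs the level was 20.1 ± 6.93 CPM per kb for *Insig1*, 15.4 ± 5.52 for *Srebf2*, 11.1 ± 2.67 for *Hmgcs1*, 5.70 ± 0.478 for *Fdps*, 4.28 ± 0.622 for *Fdft1*, 3.79 ± 0.264 for *Idi1*, 2.51 ± 0.193 for *Sqle* and 1.18 ± 0.189 for *Lss*. Here the ranges of *Insig1* and *Srebf2*, of *Srebf2* and *Hmgcs1*, and of *Fdft1* and *Idi1* overlapped, and the other neighbours were apart. *Lss*, which folds oxidosqualene into lanosterol, was thus last in both, and *Srebf2* was the second in macrophages and the seventh in livers. Part of this order depends on the exon lengths used. In CPM not divided by length, *Srebf2* was first in the *Tshr* f/f BMDMs and *Hmgcs1* in the *Tshr* f/f livers. *Lss* stayed last in both, and *Srebf2* stayed the seventh in livers. In the *Tshr* MKO BMDMs, *Lss* was last per kb but at place 6 without length.

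**Figure D1:**
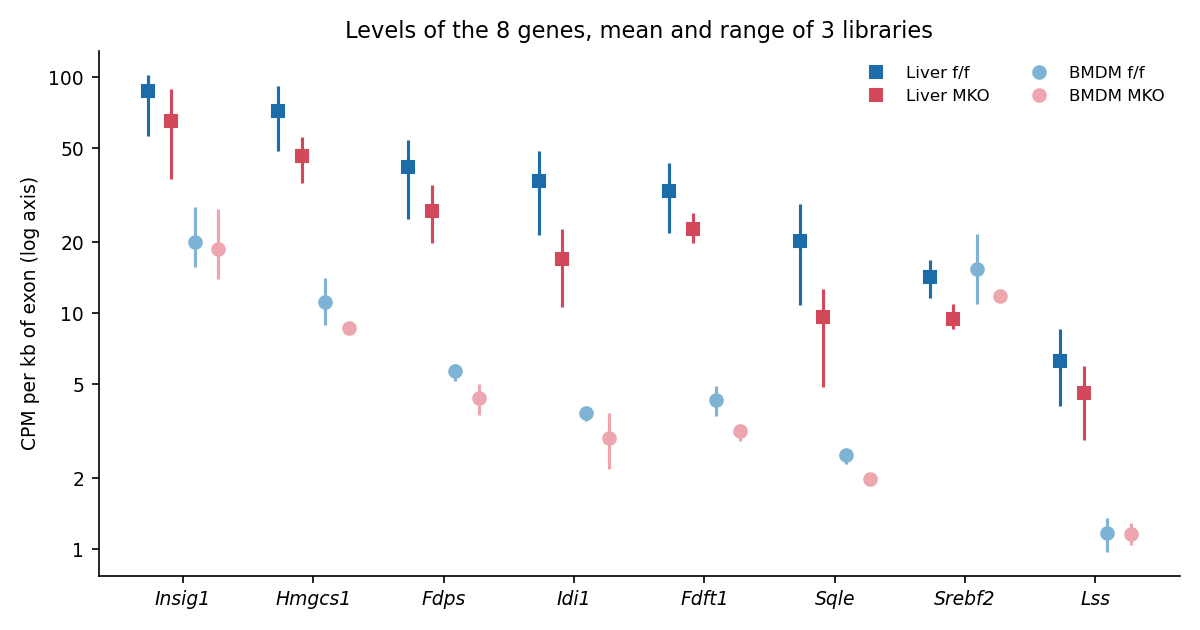
Levels of the 8 genes in CPM per kb of exon (log axis), with squares for livers and circles for BMDMs, blue for *Tshr* f/f and red for *Tshr* MKO, paler for BMDMs. Points are means and lines run from the lowest to the highest of 3 libraries. The liver points lie above the BMDM points for every gene except *Srebf2*.

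The 6 enzymes and *Insig1* were higher in livers, while *Srebf2* did not pass the test. In *Tshr* f/f samples the level per kb was 9.63 times as high in livers as in BMDMs for *Idi1*, which turns isopentenyl diphosphate into its isomer, 8.05 times for *Sqle*, the squalene epoxidase, 7.70 times for *Fdft1*, the squalene synthase, 7.29 times for *Fdps*, the farnesyl diphosphate synthase, and 6.49 times for *Hmgcs1*, the HMG-CoA synthase of the cytosol. The ratio was 5.35 for *Lss*, 4.34 for *Insig1* and 0.927 for *Srebf2*. By edgeR's quasi-likelihood test with Benjamini-Hochberg adjustment, 7 of the 8 genes were lower in BMDMs, from a log2 fold change of -3.27 ± 0.36 (SE; adjusted p = 1.54e-05) for *Idi1* to -2.12 ± 0.41 (adjusted p = 0.000925) for *Insig1*. Of all 17246 genes tested, 36.6% were lower in BMDMs at an adjusted p under 0.05. The groups of the same 7 genes did not overlap, against 37.7% of all genes that were lower without overlap. For *Srebf2* the log2 difference was 0.11 (95% interval -0.41 to 0.62, adjusted p = 0.693), and its BMDM libraries, at 13.7, 10.9 and 21.6 CPM per kb, overlapped the livers, at 16.8, 14.5 and 11.6. The sign of this small difference rested on single libraries, since it was -0.19 without replicate 3 of the *Tshr* f/f BMDMs and -0.02 without replicate 3 of the *Tshr* f/f livers.

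The other 16 enzymes of the pathway were listed as well, and 14 of them passed the same test between tissues, beside 69.3% of all genes. Of these, 12 were lower in BMDMs, beside 36.6% of all genes. *Lbr* and *Ggps1* were higher in BMDMs, and *Mvd* did not pass (adjusted p = 0.101). The median over the 16 enzymes was -2.67, beside -2.78 over the 8 genes and -0.03 over all genes tested.

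In livers, all 8 genes had a lower mean in the group labelled *Tshr* MKO, by 25.5–54.2%, and none passed the test after adjustment. *Hmgcs1*, which makes HMG-CoA, had 315, 256 and 164 CPM in the livers labelled *Tshr* f/f and 119, 184 and 165 CPM in those labelled *Tshr* MKO. *Idi1* had 128, 101 and 55.2 CPM against 27.2, 57.2 and 45.8 CPM. *Fdps*, which joins isoprenoid units to farnesyl diphosphate, had 170, 140 and 77.9 CPM against 60.6, 106 and 84.3 CPM. In each of these 3 early enzymes, replicates 1 and 2 of the *Tshr* f/f livers were the highest of the 6, replicate 1 of the *Tshr* MKO livers was the lowest, and the groups overlapped through replicate 3 of the *Tshr* f/f livers. The log2 fold change was -0.65 ± 0.27 (SE; adjusted p = 0.466) for *Hmgcs1*, -1.13 ± 0.37 (adjusted p = 0.403) for *Idi1* and -0.63 ± 0.32 (adjusted p = 0.543) for *Fdps*, by edgeR's quasi-likelihood test.

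The enzymes of the squalene steps followed the same order of libraries. *Fdft1*, which makes squalene, had 138, 104 and 67.9 CPM in the *Tshr* f/f livers and 60.7, 81.1 and 68.3 CPM in the *Tshr* MKO livers. *Sqle*, which oxidises squalene, had 121, 84.4 and 44.2 CPM against 19.7, 50.8 and 47.1 CPM. *Lss* had 69.0, 49.8 and 32.1 CPM against 22.8, 46.6 and 39.3 CPM. The groups of each overlapped, and *Sqle* spread most, its highest liver being at 6.12 times its lowest. Its log2 fold change was -1.08 ± 0.46 (adjusted p = 0.491), with a 95% interval of -2.19 to 0.03. The change was -0.56 ± 0.25 (adjusted p = 0.5003) for *Fdft1* and -0.47 ± 0.35 (adjusted p = 0.690) for *Lss*, by the same edgeR test.

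Of the regulators, *Srebf2* was the only one of the 8 genes whose groups did not overlap in liver. It had 90.5, 76.2 and 61.2 CPM in the livers labelled *Tshr* f/f and 44.6, 56.8 and 48.0 CPM in those labelled *Tshr* MKO. The gap lay between 61.2 and 56.8 CPM. Its log2 fold change was -0.61 ± 0.16 (adjusted p = 0.334), with a 95% interval of -0.99 to -0.22. *Insig1* had 237, 232 and 128 CPM against 83.2, 199 and 163 CPM, with a change of -0.43 ± 0.37 (adjusted p = 0.736).

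**Figure D2:**
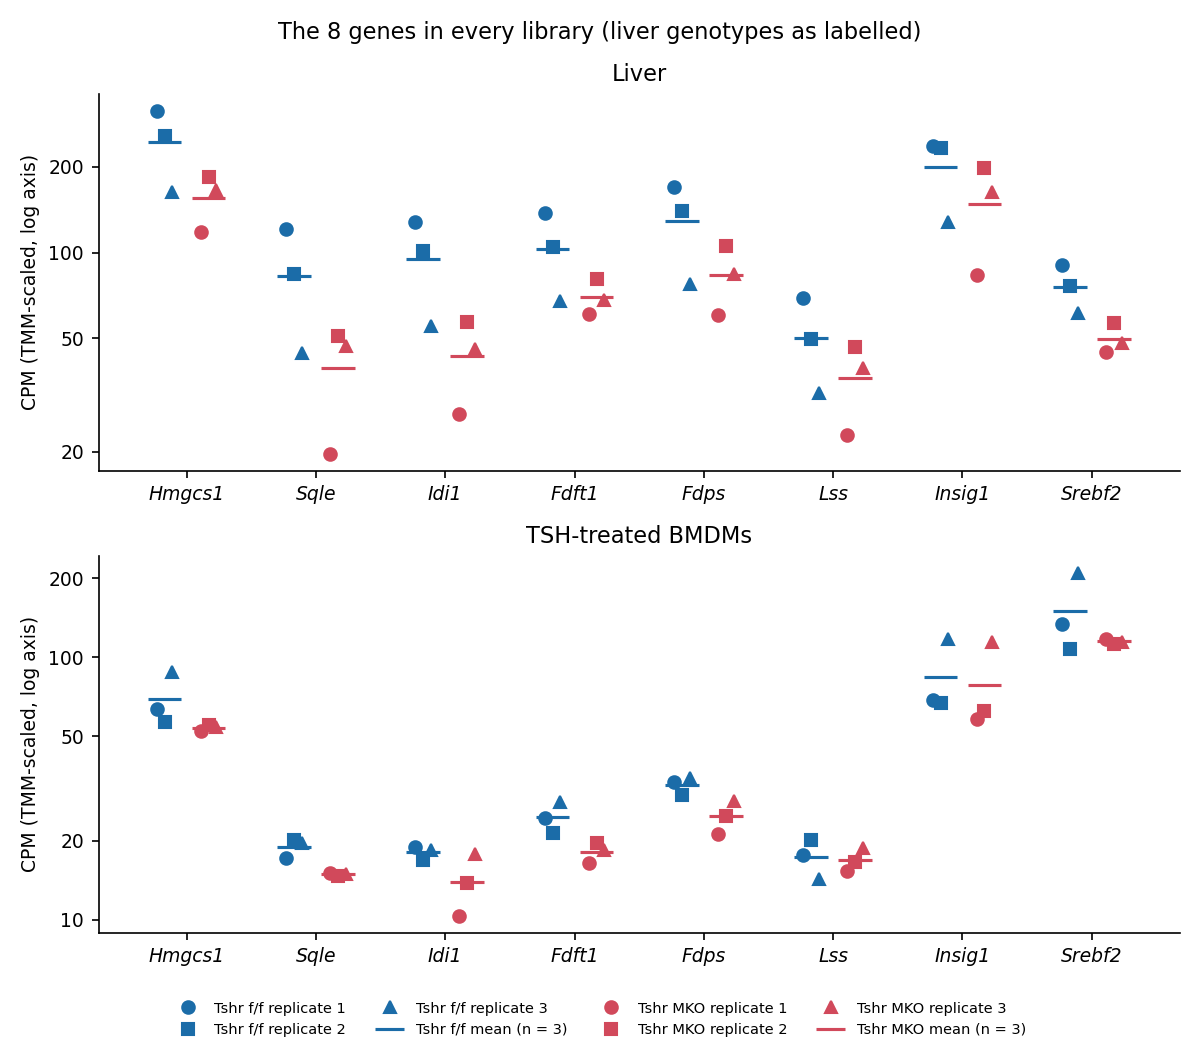
Scaled CPM (log axis) of the 8 genes in each library, livers above and BMDMs below. Blue is *Tshr* f/f, red is *Tshr* MKO, the symbol shape is the replicate number and the bar is the mean of 3. In livers replicate 1 of *Tshr* f/f is on top and replicate 1 of *Tshr* MKO at the bottom for all 8 genes.

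Counted over the liver genes, 8 of the 8 had a log2 fold change below 0, as did 50.9% of all 15062 genes tested, and the median over the 8 was -0.62 beside -0.01 over all genes. An unadjusted p under 0.05 with a lower level was found for 3 of the 8 (*Srebf2*, *Idi1* and *Hmgcs1*) and for 5.18% of all genes. Groups without overlap and lower in *Tshr* MKO were found for 1 of the 8 and for 7.74% of all genes. At an adjusted p under 0.05, edgeR called 0 of the 8 and 0% of all genes. DESeq2 called 0 of the 8 as well, while it called 220, or 0.93%, of the genes it tested. With an unadjusted p under 0.05, 6 of the 8 were lower by DESeq2, beside 881 of 23655 genes.

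The 8 genes varied together from liver to liver. Replicate 1 of the *Tshr* f/f livers was highest for 8 of 8 genes and replicate 2 second for 8 of 8, replicate 1 of the *Tshr* MKO livers was lowest for 8 of 8, and replicate 3 of the *Tshr* f/f livers was the fifth of 6 for 6 of 8. Over the 28 pairs of genes, Pearson's r of log2 CPM across the 6 livers ran from 0.773 to 0.990, with a median of 0.948, as a description of points that share 6 libraries and include the genotypes. The sample IDs of the livers began with A (replicates 1 and 2 of *Tshr* f/f and replicate 3 of *Tshr* MKO) or B (the others), and what the letter marks is not stated. Within the A livers the log2 difference between genotypes ran from -1.31 to -0.53 over the 8 genes, with a median of -0.80 and 8 of 8 below 0. Within the B livers it ran from -0.49 (*Idi1*) to 0.05 (*Fdft1*), with a median of -0.07 and 4 of 8 below 0 (*Hmgcs1*, *Sqle*, *Idi1* and *Srebf2*). Each letter held a single library of 1 genotype, and the B value rests on replicate 3 of *Tshr* f/f, the lowest *Tshr* f/f liver for 8 of 8 genes. With the letter as a covariate over all 6 livers, 8 of 8 genes stayed below 0, with a median of -0.42, and 1 was lower at an unadjusted p under 0.05. Without replicate 1 of the *Tshr* f/f livers or replicate 1 of the *Tshr* MKO livers, 1 of the 8 was lower at an unadjusted p under 0.05, and without replicate 3 of the *Tshr* f/f livers 6 were. Of all genes tested, 818 of 15624, 531 of 15383 and 598 of 15521 were lower at that threshold in the same order. The median over the 8 was -0.41, -0.48 and -0.84 without these libraries in turn.

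**Figure D3:**
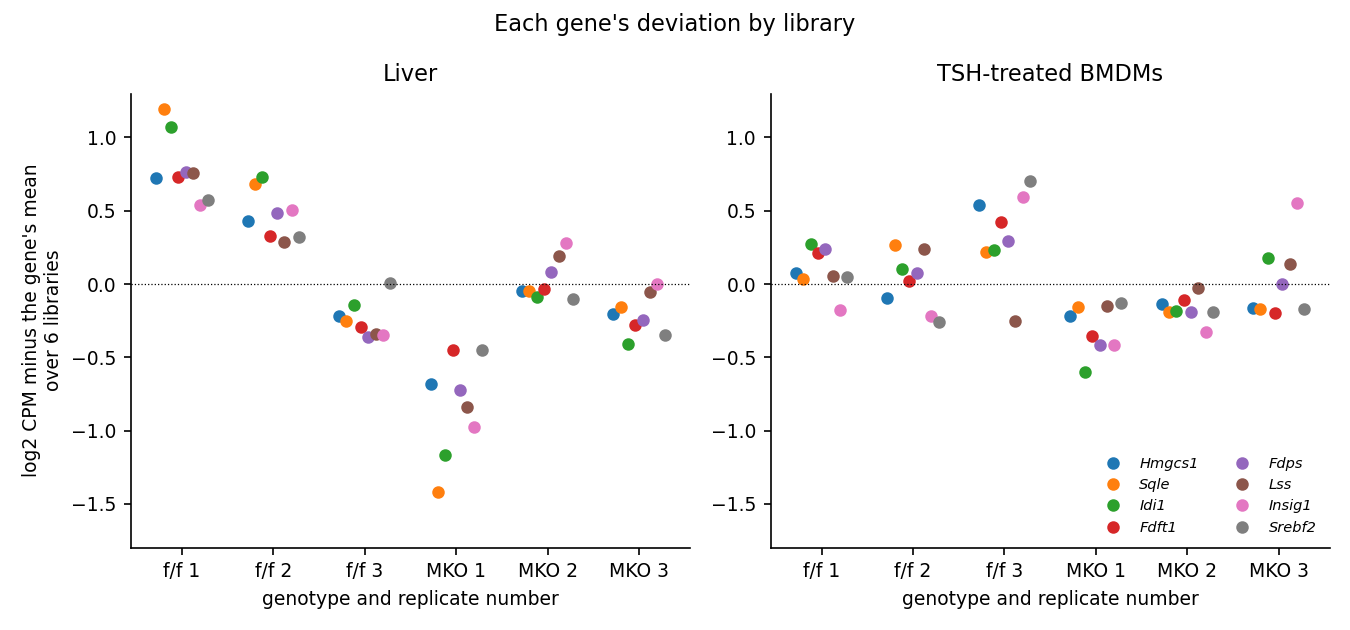
Log2 CPM of each gene minus its mean over the 6 libraries of a tissue, by library, with a colour for each gene. In livers the 8 colours move as a block, from above 0 in replicates 1 and 2 of *Tshr* f/f to the lowest values in replicate 1 of *Tshr* MKO, and in BMDMs they scatter.

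Markers of other cells also moved between the livers. The 5 neutrophil markers summed to 90.6, 32.7 and 8.07 CPM in the *Tshr* f/f livers and to 10.8, 16.4 and 17 CPM in the *Tshr* MKO livers, and so were highest in the same 2 livers as the 8 genes. The 5 Kupffer cell markers summed to 298, 804 and 593 CPM against 535, 698 and 259 CPM, and the 5 endothelial and stellate markers to 69.5, 380 and 274 CPM against 246, 260 and 160 CPM. The hepatocyte markers summed to 105000–139000 CPM in *Tshr* f/f and 126000–131000 CPM in *Tshr* MKO. The 6 macrophage markers summed to 151, 425 and 296 CPM against 207, 409 and 175 CPM. Among them *Lyz2*, the gene that drives the Cre, had 37.0, 81.7 and 60.8 CPM against 2.15, 148 and 58.2 CPM. The part of cell content in the differences of the 8 genes was not tested.

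Of the 16 other enzymes of the pathway in liver, 12 had a log2 fold change below 0 and 4 above, beside 50.9% of all genes below 0, and the median was -0.54. At an unadjusted p under 0.05, 5 were lower, beside 5.18% of all genes, and none higher. *Hsd17b7*, a reductase of sterol C4 demethylation, had 106, 65.3 and 69.3 CPM in the livers labelled *Tshr* f/f and 32.0, 46.2 and 42.1 CPM in those labelled *Tshr* MKO, without overlap, and a change of -1.001 ± 0.223 (adjusted p = 0.318). *Dhcr7*, which makes cholesterol from its last precursor, changed by -0.81 ± 0.22 (adjusted p = 0.334) and *Nsdhl*, another enzyme of C4 demethylation, by -0.85 ± 0.31 (adjusted p = 0.430), by edgeR. *Acat2*, *Ggps1*, *Tm7sf2* and *Ebp* were the 4 with a change above 0.

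Of 10 genes of sterol uptake and trafficking in liver, 9 had a change below 0 and 3 of them an unadjusted p under 0.05, beside the same 50.9% and 5.18% of all genes. *Npc1*, which exports cholesterol from lysosomes, had 132.7, 129.9 and 135.5 CPM in the *Tshr* f/f livers and 110, 105 and 76.5 CPM in the *Tshr* MKO livers, without overlap, and a change of -0.45 ± 0.14 (adjusted p = 0.376). All 5 genes of SREBP processing had a change below 0 and none an unadjusted p under 0.05, with *Insig2* at -0.39 ± 0.17 (adjusted p = 0.491) and *Mbtps2* at -0.13 nearest to it by edgeR. *Scap* (-0.06), *Mbtps1* (-0.02) and *Srebf1* (-0.02) hardly differed, and the median of the list was -0.06. Of 4 oxysterol and LXR genes tested, 2 lay below 0 and 2 above, with *Abca1*, the exporter of cholesterol, at 0.32 (95% interval -0.02 to 0.67) and *Nr1h2* at 0.08.

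In TSH-treated BMDMs the 8 genes also had a lower mean in *Tshr* MKO, by 2.55–26.5%, and none passed the test after adjustment. *Hmgcs1* had 63.8, 56.7 and 87.9 CPM in *Tshr* f/f and 52.2, 55.2 and 54.1 CPM in *Tshr* MKO, without overlap by a narrow gap. *Idi1* had 19.0, 16.9 and 18.5 CPM against 10.4, 13.8 and 17.8 CPM, with overlap. *Fdps* had 33.4, 29.9 and 34.7 CPM against 21.3, 24.9 and 28.3 CPM, without overlap. *Fdps* changed by -0.40 ± 0.14 (adjusted p = 0.257), *Hmgcs1* by -0.37 ± 0.18 (adjusted p = 0.329) and *Idi1* by -0.37 ± 0.22 (adjusted p = 0.394) on the log2 scale, by edgeR's quasi-likelihood test.

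The enzymes of the squalene steps lay on both sides of this pattern. *Sqle* had 17.2, 20.2 and 19.6 CPM in *Tshr* f/f and 15.1, 14.7 and 14.9 CPM in *Tshr* MKO. *Fdft1* had 24.4, 21.4 and 28.2 CPM against 16.5, 19.6 and 18.4 CPM. The groups of both did not overlap, and the log2 fold change was -0.35 ± 0.13 (adjusted p = 0.257) for *Sqle* and -0.44 ± 0.15 (adjusted p = 0.240) for *Fdft1*. *Lss* had 17.6, 20.1 and 14.3 CPM against 15.3, 16.6 and 18.7 CPM, with overlap and a change of -0.04 (95% interval -0.45 to 0.38). Its sign turned to 0.10 when libraries were scaled by their totals alone.

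Of the regulators, *Srebf2* and *Insig1* both spread widely in the *Tshr* f/f BMDMs. *Srebf2* had 134, 108 and 210 CPM in *Tshr* f/f and 118, 113 and 115 CPM in *Tshr* MKO, with replicate 3 of *Tshr* f/f far above the rest. *Insig1* had 68.9, 67.0 and 118 CPM against 58.5, 62.3 and 114 CPM, so that replicate 3 was the highest of either group. The groups of both overlapped, and the log2 fold change was -0.39 ± 0.26 (adjusted p = 0.437) for *Srebf2* and -0.11 ± 0.35 (95% interval -0.94 to 0.72) for *Insig1*. Without replicate 3 of the *Tshr* f/f BMDMs these became -0.07 and 0.20, and *Hmgcs1* became -0.16, while *Sqle* (-0.32), *Idi1* (-0.36), *Fdft1* (-0.33) and *Fdps* (-0.35) moved little. *Idi1* was -0.19 without replicate 1 of the *Tshr* MKO BMDMs and -0.58 without replicate 3 of *Tshr* MKO. *Insig1* also stood above 0, at 0.11, when libraries were scaled by their totals.

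Over the 8 genes in BMDMs, 8 had a change below 0, beside 49.2% of all 15372 genes tested, with a median of -0.37 beside 0.01 over all genes. Without replicate 3 of *Tshr* f/f the median was -0.24. Scaling by library totals moved the median of all genes to 0.18 and left 6 of the 8 below 0. An unadjusted p under 0.05 with a lower level was found for 3 (*Fdft1*, *Fdps* and *Sqle*) beside 10.2% of all genes, and groups without overlap and lower for 4, the same 3 and *Hmgcs1*, beside 14% of all genes. At an adjusted p under 0.05, edgeR called 0 of the 8 and 0% of all genes. DESeq2 called 0 of the 8 and 1100, or 4.38%, of the genes it tested. With an unadjusted p under 0.05, 3 of the 8 were lower by DESeq2, beside 1827 of 25135 genes. By edgeR, the 3 became 0 without replicate 1 of the *Tshr* MKO BMDMs, beside 731 of 15884 genes lower at that threshold. They became 1 without replicate 2 of *Tshr* MKO (820 of 15859 genes) and 1 without replicate 1 of *Tshr* f/f (1436 of 15743 genes). Inflammatory markers summed to 1080–26100 CPM in *Tshr* f/f and to 66.9–238 CPM in *Tshr* MKO, and macrophage markers to 10600–11600 CPM against 14600–21900 CPM. The macrophage sums rest on *Lyz2*, since the other 5 markers summed to 4020–4460 CPM against 3920–5210 CPM, and among them *Mrc1* was higher without overlap and *Adgre1* lower without overlap (-0.30). *Lyz2* itself had 6546, 7141 and 6462 CPM in *Tshr* f/f and 11878, 10662 and 16649 CPM in *Tshr* MKO. It is the gene that drives the Cre, so as a marker it is not independent of the genotype. Proliferation markers summed to 259, 182 and 515 CPM in *Tshr* f/f and to 147, 181 and 191 CPM in *Tshr* MKO, but the other 4 without *Mki67* summed to 70.5–74.2 CPM against 60.4–81.4 CPM. The part of these states in the differences of the 8 genes was not tested.

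The 8 genes did not share 1 order of BMDM libraries. Replicate 3 of *Tshr* f/f was the highest for 5 genes and the lowest for *Lss*, and replicate 1 of *Tshr* MKO was the lowest for 5. Pearson's r between pairs of genes across the 6 BMDM libraries ran from -0.709 (*Lss* and *Srebf2*) to 0.968, with a median of 0.581, beside 0.948 in livers, as a description over 28 pairs that share the libraries.

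**Figure D4:**
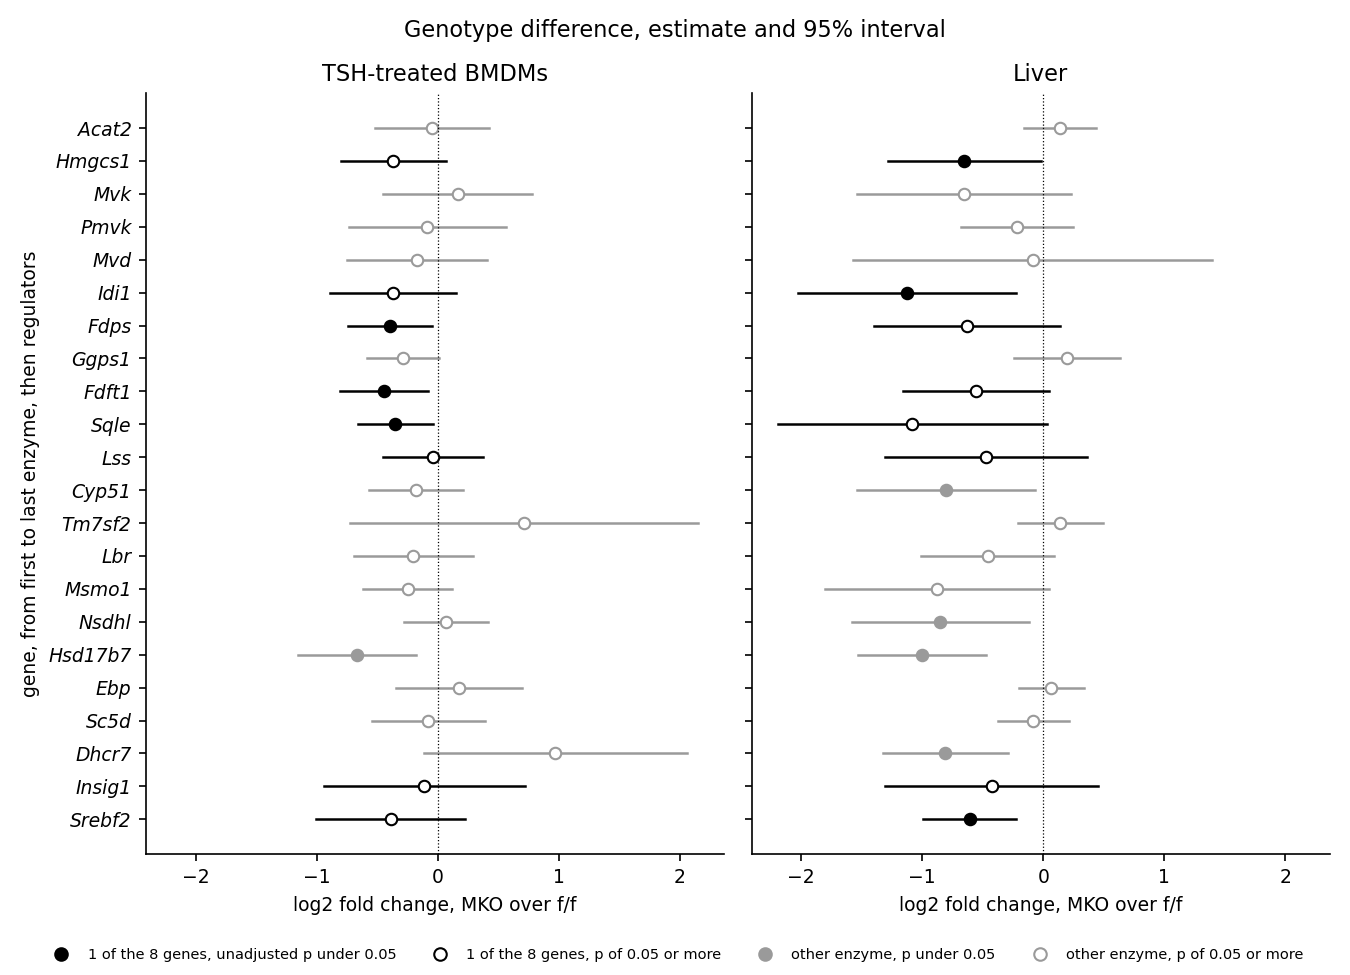
Log2 fold changes of *Tshr* MKO over *Tshr* f/f with 95% intervals, for BMDMs (left) and livers (right), with enzymes in pathway order and then the regulators. Black marks the 8 genes, grey other enzymes of the pathway, and filled points an unadjusted p under 0.05. In livers most points lie left of 0, and in BMDMs the 8 genes lie left of 0 with *Lss* and *Insig1* near it while the other enzymes fall on both sides.

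Of the 16 other enzymes in BMDMs, 10 lay below 0 and 6 above, beside 49.2% of all genes below 0, and the median was -0.08. At an unadjusted p under 0.05, 2 were lower, beside 10.2% of all genes, and none higher. *Hsd17b7* had 7.33, 8.66 and 10.4 CPM in *Tshr* f/f and 4.94, 5.89 and 5.76 CPM in *Tshr* MKO, without overlap, and a change of -0.67 ± 0.20 (adjusted p = 0.225). Of 5 SREBP processing genes, *Scap*, the escort of SREBPs, was at 37.8, 41.3 and 25.9 CPM against 47.7, 46.5 and 49.5 CPM, a change of 0.45 ± 0.19 (adjusted p = 0.275), and *Srebf1* was next at -0.30.

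Uptake and export genes of BMDMs lay on both sides of 0. Of 10 uptake and trafficking genes, 1 was lower and 4 were higher at an unadjusted p under 0.05, with a median of 0.44. Of all 15372 genes tested, 1567 were lower and 1189 higher at that threshold, with a median of 0.01. *Scarb1*, the receptor for high-density lipoprotein, changed by 0.75 ± 0.22 (adjusted p = 0.223) and *Mylip*, a ubiquitin ligase induced by LXR, by 0.57 ± 0.17 (adjusted p = 0.225), both without overlap by edgeR. *Ch25h*, which makes 25-hydroxycholesterol, a sterol that blocks SREBP processing, had 22.0, 12.7 and 33.7 CPM against 2.09, 2.24 and 1.08 CPM and a change of -3.66 ± 0.47 (adjusted p = 0.218). Of the 5 oxysterol and LXR genes, *Nr1h2*, an LXR, changed by -0.55 and *Abcg1*, a sterol exporter, by 1.07 ± 0.40 (adjusted p = 0.258).

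The genotype differences of the 8 genes were set against each other between tissues in a single fit of 12 libraries. The difference in BMDMs minus that in livers was above 0 for 8 of 8 genes, from 0.11 (*Fdft1*) to 0.75 (*Idi1*), with a median of 0.30. None had an unadjusted p under 0.05, beside 14.5% of all genes, and edgeR called 0 of the 8 after adjustment, beside 0.0058% of all genes. DESeq2 also called 0 of the 8, beside 2.44% of the genes it tested. For *Idi1* the 95% interval was -0.28 to 1.79 (adjusted p = 0.483) and for *Sqle* -0.42 to 1.88 (adjusted p = 0.546), so that equal changes and a much larger change in liver were both within it. Without replicate 1 of the *Tshr* f/f livers, *Fdft1* (-0.14) and *Fdps* (-0.003085) lay below 0, and without replicate 3 of the *Tshr* MKO BMDMs *Insig1* did (-0.07).

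The genes outside these lists that were most like the mean of the 8 over the 6 livers, by Pearson's r of log2 CPM with the mean standardised level, were *Acsl3* (0.988), *Gm13502* (0.978), *Elovl1* (0.974), *Zfp341* (0.971) and *Rbm3* (0.969), out of 11909 ranked. *Acsl3* activates long-chain fatty acids, *Elovl1* lengthens very long ones, and *Gm13502* is the copy of *Idi1* named above. *Acsl3* had 27.4, 18.7 and 12.4 CPM in the livers labelled *Tshr* f/f and 7.99, 16.6 and 12.7 CPM in those labelled *Tshr* MKO. Over the 6 BMDM libraries they were *N4bp2l2* (0.991), *Zranb2* (0.990), *Zcchc9* (0.986), *Gm42462* (0.986) and *Pex5* (0.986), out of 12458 ranked, and none of the 5 was among those of liver. These genes were picked as the highest over only 6 libraries that include both genotypes, so a high r follows from the picking. Shared control was not tested, and *Gm13502* is compared with a mean that includes *Idi1*, the gene it copies.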

How the data were processed

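RNA was sequenced from strand-specific libraries, and the submitters' processing notes name FastQC 0.11.2, STAR, StringTie and the build mm10. The authors deposited raw read counts per gene; the counting program and annotation are not given in the sources used here. Libraries were grouped by GEO's labels. The 8 genes and the lists were chosen with earlier results of these data known.

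Counts were tested with edgeR 4.0.16 in R 4.3.3 (quasi-likelihood, TMM factors, filterByExpr, Benjamini-Hochberg adjustment over all genes): genotype within a tissue on its 6 libraries (15372 genes in BMDMs and 15062 in livers), and tissue and the interaction on all 12 (17246 genes). Unadjusted p-values come from the same fits. The test was tried on simulated data with larger changes and less spread than those of the 8 genes here. That trial cannot show how the test performs for changes of this size. CPM were scaled by TMM within a tissue, and levels per kb and marker sums over all 12 libraries, with exon lengths of GENCODE M21. Copies were searched with BLAST 2.17.0 (at least 90% identity over 200 bases). Named were the 8 genes, up to 4 genes of each other list at an unadjusted p under 0.05 (or the 2 lowest p), and the 5 most similar genes with a mean of 50 counts. Other genes named beside a count, and the pseudogenes and overlapping genes, were chosen after their values were seen. Some listed genes, although within the counts of their lists, are not reported here. Alternatives were other scaling and filters, DESeq2 1.42.0, MARS (a test on counts summed over replicates, with 0 set to 0.5), all 12 libraries together, replicate number as a block, the ID letter, and each library left out.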

Additional observations from a re-analysis of the deposited data

How the results depend on the processing

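In livers all 8 genes stayed below 0 under each of 16 alternatives. The 3 liver genes lower at an unadjusted p under 0.05 became 6 with all 12 libraries in a fit, 6 with DESeq2, 1 with the ID letter as a covariate and 1–6 without single libraries. Of all genes, 560 of 17246, 881 of 23655 and 667 of 15062 were lower in the first 3 of these runs. Without single libraries 531–1158 were, of 15291–15624 tested. MARS, which sums replicates and so holds no spread between libraries, gave 8, beside 4869 of 23672 genes. It called 8 of 8 after adjustment beside 39.7% of all genes. In BMDMs the 3 genes became 0 with library totals, 0 with all 12 libraries, 6 with MARS and 0–4 without single libraries. Of all genes, 1035 of 15372, 1946 of 17246 and 4768 of 25179 were lower in the first 3 of these runs. Without single libraries 731–2299 were, of 15654–15925 tested. MARS called 7 after adjustment beside 52.5% of all genes. The BMDM median of -0.37 was -0.16 with library totals and -0.17 with MARS, and the cause was not tested. *Lss* in BMDMs was 0.024 with upper-quartile factors, 0.10 with totals, 0.086 with MARS and -0.16 to 0.081 without single libraries, and *Insig1* was 0.11 with totals, 0.15 with MARS and -0.48 to 0.20 without single libraries. Between tissues the median of -2.78 was -1.98 with totals, a scaling that moved the median of all genes to 0.79, and *Srebf2* ran from -0.19 to 0.31 without single libraries. In the difference of differences, 0–2 genes fell below 0 without single libraries, with *Fdft1* from -0.14 to 0.34, *Fdps* from -0.003085 to 0.49 and *Insig1* from -0.071 to 0.63. Same-numbered libraries deviated together weakly or not at all (r of 0.136, 0.0273 and 0.113 in BMDMs and -0.0655, 0.252 and -0.0291 in livers). For replicates 2 and 3 of the *Tshr* f/f BMDMs and replicate 2 of the *Tshr* f/f livers, the same number still gave the highest r. With 3 libraries a group, these values cannot decide whether the numbers pair libraries, and the main fits assumed no pairs. The replicate block gave 1 BMDM gene instead of 3, beside 1337 of 15372 genes. With 3 libraries a group, the intervals of the 8 genes were wide, and small differences were not detectable.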
